A study of Mus musculus with 23 samples.

Results

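The 9 genes described here, P2ry12, P2ry13, Tmem119, Cx3cr1, Gpr34, Siglech, Sall1, Fcrls and Olfml3, mark the homeostatic state of microglia, the resident macrophages of the brain. They were chosen by symbol, all 9 were found among the 35976 genes of the deposited count table, and all 9 passed the filter on low counts that left 16121 genes for testing. Striatal microglia of male C57BL/6J mice, given as 9 weeks old, were sequenced as 23 RNA libraries. The study asked how microglia change when mice press a lever for intravenous methamphetamine, a psychostimulant, and after the drug is withdrawn.

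Homeostatic microglia sample the tissue around them with fine processes. Receptors for nucleotides and for the neuronal chemokine fractalkine guide those processes, and TGF-beta signalling with the transcription factor Sall1 holds the gene programme that separates microglia from other macrophages. In many models of injury and neurodegeneration these genes fall while activation genes rise, so their level is used as a readout of microglial state.

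The Abstinence group (7 libraries) took methamphetamine at 0.05 mg/kg per infusion, dissolved in 0.9% saline, in 15 daily sessions of 2 hr and then spent 21 days in the home cage without drug. The Maintenance group (8 libraries) took the same drug in the same sessions, and its microglia were isolated directly after the last one. The Saline group (8 libraries) pressed for saline on the same schedule and was also sampled directly after the last session. All mice were of 1 strain with no genetic modification listed, and no group of saline mice passed through the 21 days. Drug history, age and time in the home cage therefore cannot be told apart in Abstinence against Saline, nor can time since the last infusion, age and home cage in Abstinence against Maintenance. The labels do not say whether libraries of a group came from separate animals, and the p-values therefore rest on a spread between libraries that may be partly technical.

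Libraries held 54970954 to 94827095 counts, and the 9 genes together took 2.88% to 3.29% of all counts in Abstinence, 2.28% to 3.39% in Maintenance and 2.73% to 3.38% in Saline. A single gene rested on 8604 to 1006769 counts per library, so counting error was small beside the differences between libraries. The labels give the tissue as neuronal and the cell type as microglia. Other defining microglial genes were present in every library: Csf1r at 3782 to 6581 CPM (counts relative to library size, scaled by TMM factors) and Itgam at 712 to 1053 CPM. Fewer microglia in a preparation and less RNA of a gene per cell cannot be told apart in such bulk libraries. Maintenance 6 and Maintenance 7 listed the fewest genes with a count (12459 and 12740, against 14727 to 17034 in the other libraries). Maintenance 8 carried by far the most choroid plexus and ependymal transcripts, with 12 markers summing to 44755 CPM. Abstinence 1 followed with 130.1 CPM, and the remaining libraries had 1.07 to 27.4 CPM. Values without Maintenance 6, 7 and 8 stand beside the comparisons with Maintenance.

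Levels were compared between genes per kilobase of transcript. P2ry12 was highest in every group, with 4478 ± 404 CPM per kb in Abstinence, 4552 ± 563 in Maintenance and 4406 ± 444 in Saline (SD, n = 7, 8 and 8). Tmem119 followed with 1687 ± 104, 1735 ± 216 and 1878 ± 297 CPM per kb in Abstinence, Maintenance and Saline. Gpr34, Fcrls, Cx3cr1 and P2ry13 lay together, between 1158 and 1469 CPM per kb in group means, and these neighbours did not differ beyond their SDs in any one order. Siglech had 442 to 445 CPM per kb in group means, and Sall1 was lowest at 29.5 to 32.6 CPM per kb. The place of Olfml3 could not be fixed. Its level was 215 to 282 CPM per kb over the 5465 bases of its GENCODE M21 coding transcript. Over the 2608 bases that its RefSeq gene spans on the genome, it was 450 to 591 CPM per kb. That span takes in any introns, so it is only an upper limit on the RefSeq transcript length. It is a measure unlike the transcript lengths used for the other genes. By CPM, P2ry12 ranked 4 of 16121 tested genes and Sall1 ranked 940.

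The table of RefSeq promoters (build GRCm38.p6) matched 7 of the 9 genes, all but Tmem119 and Gpr34, with 250 bases ahead of each start used here. The 4 printed below belong to P2ry12 and P2ry13, related receptors whose genes lie close together on chromosome 3, and to Cx3cr1 and Olfml3, whose levels correlated at r = 0.84 across the 23 libraries. Capitals mark GAGGAA, a form of the binding site of PU.1, the macrophage transcription factor, searched on both strands. Shorter or other forms of the site were not searched, so an unmarked window may hold them. GAGGAA occurred in 2 of the 7 genes (P2ry13, 48 bases before the listed start, and Fcrls, 144 bases before its listed start). It also occurred in 23.4% of 32536 windows of all genes. The Fcrls window (chr3:87263525-87263774, minus strand) lies largely inside the annotated RefSeq gene, which reaches 87263765. Its match is therefore not upstream of that gene. A match describes letters, not a bound site. The windows are on the minus strand at chr3:59262986-59263235 (P2ry12), chr3:59210883-59211132 (P2ry13), chr9:120068297-120068546 (Cx3cr1) and chr3:103738002-103738251 (Olfml3), each written 5′ to 3′ towards its start.
P2ry12: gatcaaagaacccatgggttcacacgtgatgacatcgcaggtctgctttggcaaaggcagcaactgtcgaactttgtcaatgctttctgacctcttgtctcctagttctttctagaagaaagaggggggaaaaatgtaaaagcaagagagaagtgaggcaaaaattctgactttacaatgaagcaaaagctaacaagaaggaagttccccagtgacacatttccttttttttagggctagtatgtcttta
P2ry13: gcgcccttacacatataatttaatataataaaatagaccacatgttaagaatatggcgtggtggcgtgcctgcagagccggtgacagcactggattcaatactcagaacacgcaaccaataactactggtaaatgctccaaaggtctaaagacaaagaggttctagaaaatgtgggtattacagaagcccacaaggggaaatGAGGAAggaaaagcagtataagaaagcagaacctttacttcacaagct
Cx3cr1: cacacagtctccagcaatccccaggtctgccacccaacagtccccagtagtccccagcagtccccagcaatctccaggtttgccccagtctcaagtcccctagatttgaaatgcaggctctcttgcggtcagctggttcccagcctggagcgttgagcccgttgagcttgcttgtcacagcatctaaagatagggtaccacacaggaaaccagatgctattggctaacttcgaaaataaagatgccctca
Olfml3: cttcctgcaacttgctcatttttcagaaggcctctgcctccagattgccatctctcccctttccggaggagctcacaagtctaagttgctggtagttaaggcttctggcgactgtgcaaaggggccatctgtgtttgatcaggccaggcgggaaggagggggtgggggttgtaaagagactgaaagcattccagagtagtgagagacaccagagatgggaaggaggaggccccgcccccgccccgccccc

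In all 3 comparisons the 9 identity genes stayed short of the threshold, and their intervals set bounds on the size of any change. By edgeR's quasi-likelihood test at an adjusted p under 0.05, 0 of 9 passed in Abstinence against Maintenance, where 0.949% of all tested genes did. In that comparison 3 of the 9 had an unadjusted p under 0.05 (Cx3cr1, Fcrls and Olfml3), as had 11% of all tested genes and 27.3% of the 940 at least as abundant as Sall1. In the same comparison DESeq2 and limma voom each called 1 gene of the 9, Olfml3, higher in Abstinence. They called 471 and 340 genes in all, against 153 by edgeR. In Abstinence against Saline 0 of 9 passed, against 0.0186% of all genes, with 0 at an unadjusted p under 0.05 (4.39% of all and 9.79% of the abundant genes) and 0 by DESeq2 or voom. In Maintenance against Saline 0 of 9 passed, against 0.707% of all genes, with 2 at an unadjusted p under 0.05 (Cx3cr1 and Olfml3, beside 11.8% of all and 25.7% of the abundant genes) and 0 by DESeq2 or voom. One test over all 3 groups called 0 of 9, against 1.07% of all genes and 4.79% of the 940 abundant ones. Of those 940, edgeR called 8 higher and 27 lower in Abstinence against Maintenance. It called 1 higher and 0 lower in Abstinence against Saline, and 20 higher and 11 lower in Maintenance against Saline. Every pair of groups overlapped in range for every one of the 9 genes, but overlap was not counted over all tested genes, so this sets the 9 apart from no others. The comparisons share their libraries pairwise and are not independent of one another.

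**Figure D1:**
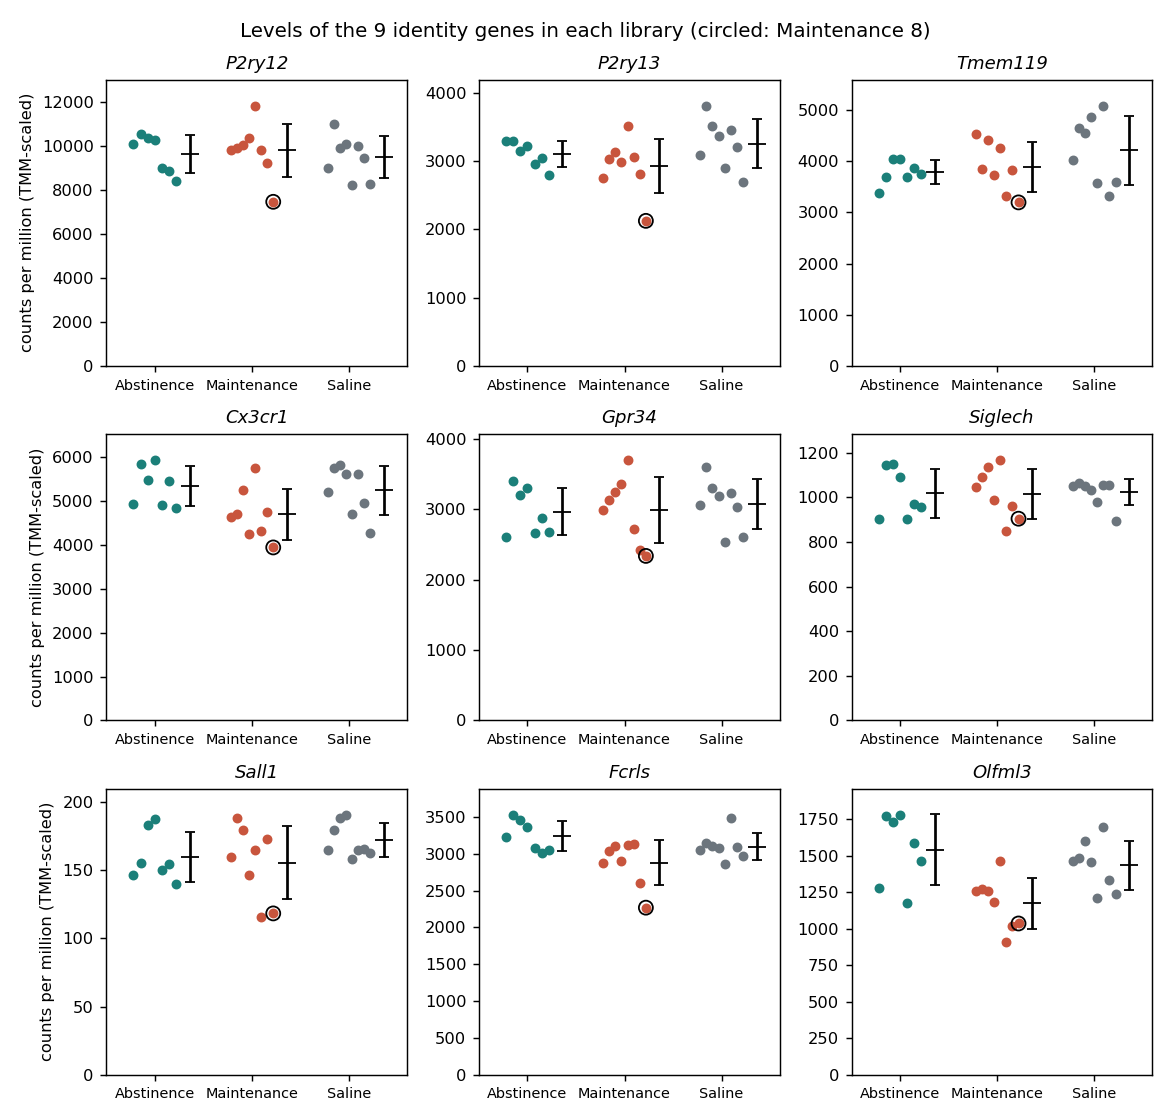
CPM (vertical axis, from 0) of each identity gene in each of the 23 libraries, in Abstinence, Maintenance and Saline, with the mean and SD beside each group as a bar. The groups overlap for every gene; the circled library Maintenance 8 is the lowest of all 23 for 6 of the 9 genes.

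P2ry12 encodes the ADP receptor through which microglial processes sense nucleotides released by other cells. It measured 8424, 10099 and 10572 CPM (lowest, median and highest library) in Abstinence, 7468, 9885 and 11841 CPM in Maintenance, and 8245, 9707 and 10995 CPM in Saline. The lowest and the highest library both belonged to Maintenance, and the 3 medians lay within the range of every group. The log2 fold change was -0.02 ± 0.08 (SE; adjusted p = 0.972) in Abstinence against Maintenance, 0.02 ± 0.08 (0.999) in Abstinence against Saline and 0.05 ± 0.08 (0.905) in Maintenance against Saline. The 95% intervals left room for a loss of at most 12.0% in Abstinence relative to Maintenance, 9.09% in Abstinence relative to Saline and 7.24% in Maintenance relative to Saline, and for a gain of at most 15.1% in the last of these. With Maintenance 6, 7 and 8 left out, the values were -0.11 (interval -0.26 to 0.04) against Maintenance, 0.01 against Saline and, in Maintenance against Saline, 0.13 (interval -0.02 to 0.27).

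P2ry13, a related ADP receptor beside P2ry12 on chromosome 3, measured 2791, 3155 and 3303 CPM in Abstinence, 2126, 3008 and 3515 CPM in Maintenance, and 2693, 3287.5 and 3812.5 CPM in Saline (lowest, median and highest). Maintenance lay lower as a group, with 7 of its 8 libraries below the Saline median, while its ranges still overlapped those of both other groups. The log2 fold change was -0.15 ± 0.08 in Maintenance against Saline (adjusted p = 0.453, unadjusted p = 0.0599), with a 95% interval from -0.31 to 0.01. Without Maintenance 6, 7 and 8 it was -0.08 (interval -0.23 to 0.06), and 0.01 in Abstinence against Maintenance. In Abstinence it was 0.09 ± 0.08 against Maintenance (adjusted p = 0.825) and -0.07 ± 0.08 against Saline (adjusted p = 0.999), the second with room for a loss of at most 14.9%.

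Gpr34, an X-linked receptor for lysophosphatidylserine, measured 2603, 2867 and 3398 CPM in Abstinence, 2335, 3057 and 3694 CPM in Maintenance, and 2529, 3123 and 3592 CPM in Saline. The groups lay on top of one another, and Maintenance again held both extremes. Its log2 fold changes were -0.01, -0.05 and -0.04 (each ± 0.09) in Abstinence against Maintenance, Abstinence against Saline and Maintenance against Saline, with a largest allowed loss of 15.5% in Abstinence relative to Saline. They were -0.15 (interval -0.33 to 0.02), -0.06 and 0.09 (interval -0.07 to 0.26) without Maintenance 6, 7 and 8. Cask, which spans Gpr34 on the opposite strand, held 4.03% as many counts as Gpr34.

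Cx3cr1, the fractalkine receptor, couples microglia to neurons, which make its ligand Cx3cl1. It measured 4851, 5455 and 5936 CPM in Abstinence, 3945, 4671 and 5749 CPM in Maintenance, and 4276, 5413.5 and 5836 CPM in Saline. All 7 Abstinence libraries lay above the Maintenance median, and 7 of 8 Maintenance libraries lay below the Saline median, though the ranges overlapped. The log2 fold change was 0.19 ± 0.08 in Abstinence against Maintenance (unadjusted p = 0.0246, adjusted p = 0.34) and -0.16 ± 0.08 in Maintenance against Saline (unadjusted p = 0.0463, adjusted p = 0.409). Neither passed. Without Maintenance 6, 7 and 8 the values were 0.11 (interval -0.05 to 0.28) and -0.09 (interval -0.26 to 0.07). In Abstinence against Saline the value was 0.03 ± 0.08, with a 95% interval that reached a loss of 8.73% and a gain of 13.9%.

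Siglech encodes a sialic acid binding surface receptor that pairs with the adaptor Tyrobp. It measured 901.7, 971.8 and 1150.2 CPM in Abstinence, 849.4, 1016 and 1167 CPM in Maintenance, and 893.5, 1052 and 1063 CPM in Saline. Of the 9 genes it differed least, with log2 fold changes of 0.00, -0.01 and -0.01 (each ± 0.07) in Abstinence against Maintenance, Abstinence against Saline and Maintenance against Saline. Its intervals allowed a loss of at most 9.59%, 10.2% and 9.92% in the same 3 comparisons. Without Maintenance 6, 7 and 8 the log2 fold changes were -0.10, -0.02 and 0.08, and the first allowed a loss of 15.3%.

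Fcrls, a mouse Fc receptor-like molecule used as a microglial marker, measured 3013, 3221 and 3529 CPM in Abstinence, 2268, 2969 and 3126 CPM in Maintenance, and 2859, 3081 and 3485 CPM in Saline. Every Abstinence library lay above the Maintenance median, and the ranges overlapped at the lowest Abstinence and highest Maintenance libraries. The log2 fold change in Abstinence against Maintenance was 0.17 ± 0.06 (unadjusted p = 0.0112, adjusted p = 0.23). It was 0.12 (interval 0.01 to 0.23) without Maintenance 8 and 0.10 (interval 0.00 to 0.21) without Maintenance 6, 7 and 8. Against Saline the values were 0.07 ± 0.06 in Abstinence and -0.11 ± 0.06 in Maintenance (adjusted p = 0.999 and 0.543), the second -0.05 without Maintenance 6, 7 and 8.

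Tmem119, a membrane protein of unsettled function that separates microglia from infiltrating macrophages, measured 3377, 3757 and 4052 CPM in Abstinence, 3195, 3833 and 4522 CPM in Maintenance, and 3322, 4289 and 5084 CPM in Saline. All 7 Abstinence libraries lay below the Saline median, but they also lay inside the Saline range, which was the widest of the 3. The log2 fold change in Abstinence against Saline was -0.15 ± 0.09 (unadjusted p = 0.0927, adjusted p = 0.999), with a 95% interval from -0.34 to 0.03, and a loss of up to 20.8% was therefore allowed. In the other comparisons it was -0.04 ± 0.09 (Abstinence against Maintenance) and -0.11 ± 0.09 (Maintenance against Saline, adjusted p = 0.684), and without Maintenance 6, 7 and 8 these were -0.14 and -0.02.

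Olfml3, a secreted olfactomedin family protein, differed most. It measured 1177, 1589.5 and 1781 CPM in Abstinence, 912.4, 1219 and 1461 CPM in Maintenance, and 1209.8, 1460.5 and 1693 CPM in Saline. Maintenance was the low group, with 7 of its 8 libraries under the Saline median, and 6 of 7 Abstinence libraries lay above the Maintenance median, with overlapping ranges throughout. Means were 1541.5 ± 243.5 CPM in Abstinence, 1174 ± 176 CPM in Maintenance and 1435 ± 167 CPM in Saline. In Abstinence against Maintenance the fold was 1.31 (log2 0.39 ± 0.10, unadjusted p = 0.000578) and the adjusted p of 0.0529 missed the threshold. In Maintenance against Saline the fold was 0.818 (log2 -0.29 ± 0.10, unadjusted p = 0.00609, adjusted p = 0.168). That log2 value was -0.16 (interval -0.36 to 0.04, adjusted p = 0.599) without Maintenance 6, 7 and 8. For Abstinence against Saline the fold was 1.07 (log2 0.10 ± 0.10, adjusted p = 0.999).

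The call on Olfml3 in Abstinence against Maintenance turned on the settings. It passed with RLE factors (adjusted p = 0.0415), with library totals alone (0.0237), with a filter of 1 CPM (0.0336), by DESeq2 (0.00465) and by limma voom (0.0213). It also passed without Abstinence 1 (0.0332), without Abstinence 5 (0.0209) or without Maintenance 5 (0.0243). Without Maintenance 6, 7 and 8, its 3 lowest libraries of 23, the log2 fold change was 0.26 with an interval from 0.05 to 0.46 (adjusted p = 0.245). Set against the mean of the other 8 genes in the same library, the Olfml3 log2 ratio averaged 0.16 ± 0.16 in Abstinence, -0.17 ± 0.13 in Maintenance and 0.03 ± 0.08 in Saline (SD, each gene centred on its mean over 23 libraries), a description with no test. The ratio ran from -0.12 to 0.27 in Abstinence, -0.41 to -0.02 in Maintenance and -0.05 to 0.18 in Saline, and the ranges of Abstinence and Maintenance overlapped.

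Sall1 encodes the zinc finger transcription factor that keeps microglial identity, and its level was the lowest of the 9. It measured 139.6, 154.3 and 187.7 CPM in Abstinence, 115.5, 162.0 and 188.0 CPM in Maintenance, and 158.2, 165.2 and 190.5 CPM in Saline. Maintenance 6 and Maintenance 8 lay apart at the bottom of their group, and the 3 highest libraries of the groups were nearly level. Its log2 fold change was 0.04, -0.11 and -0.14 (each ± 0.09) in Abstinence against Maintenance, Abstinence against Saline and Maintenance against Saline, with adjusted p of 0.96, 0.999 and 0.598. The largest loss its intervals allowed was 18.8% in Abstinence and 20.5% in Maintenance, each relative to Saline. The 3 values were -0.08, -0.11 and -0.04 without Maintenance 6, 7 and 8.

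The intervals of the 9 genes give the size of change that the data allow. No 95% interval in Abstinence against Saline reached a loss beyond 20.8% (Tmem119) or a gain beyond 23.9% (Olfml3). In Maintenance against Saline the limits were a loss of 28.8% (Olfml3) and a gain of 15.1% (P2ry12), and in Abstinence against Maintenance a loss of 14.3% (Tmem119) and a gain of 51.5% (Olfml3). All intervals lay within 1.5-fold in either direction, except that of Olfml3 in Abstinence against Maintenance, which reached 1.51-fold, and all lay within 2-fold. Widened to cover the 27 intervals jointly, 8, 9 and 8 of the 9 lay within 1.5-fold in Abstinence against Maintenance, Abstinence against Saline and Maintenance against Saline, and all lay within 2-fold. The 95% intervals of 3, 0 and 2 of the 9 left out 0 in those comparisons. Olfml3 in Abstinence against Maintenance ran from 0.19 to 0.60, and from 0.05 to 0.74 when widened. It was the 1 gene whose widened interval left out 0. The median log2 fold change of the 9 genes was 0.04, -0.01 and -0.11 in those comparisons, beside 0.01 over all tested genes in each. It was 0, -0.03 and -0.03 over the 940 tested genes at least as abundant as Sall1. Of the 9 genes 3, 5 and 8 were lower in those comparisons, beside 465, 565 and 548 of the 940.

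**Figure D2:**
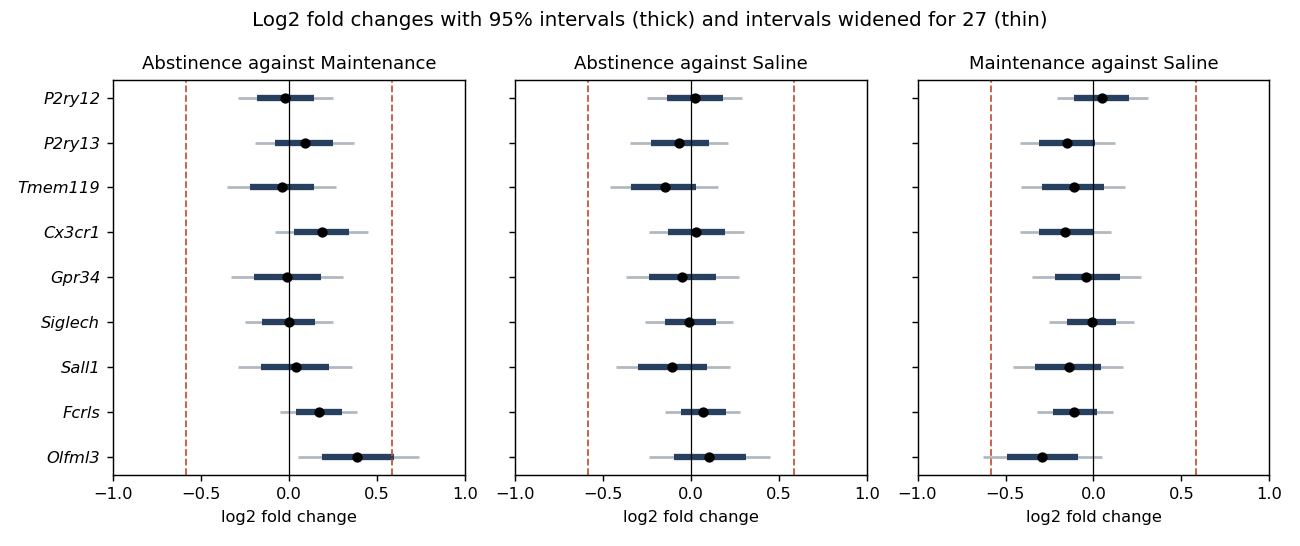
Log2 fold changes (points) of the 9 genes in each comparison, with 95% intervals as thick lines, intervals widened for 27 tests as thin lines and dashed lines at 1.5-fold. Except for Olfml3, all 95% intervals stay well inside the dashed lines, and Olfml3 in Abstinence against Maintenance reaches 0.60.

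The narrow limits went with abundance. The interval reached a factor of 1.12 to either side for the median identity gene, against 1.53 to 1.55 for the median tested gene and 1.12 for the 940 tested genes at least as abundant as Sall1. The biological coefficient of variation had a median of 0.123 over the 9 genes, 0.124 over those 940 and 0.423 over all tested genes. Intervals within 1.5-fold were found for 94.4%, 97.8% and 94.5% of the 940 in Abstinence against Maintenance, Abstinence against Saline and Maintenance against Saline, and for 34.3%, 38.3% and 35.5% of all tested genes. On each of these measures the 9 genes and the other abundant genes had close values.

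**Figure D3:**
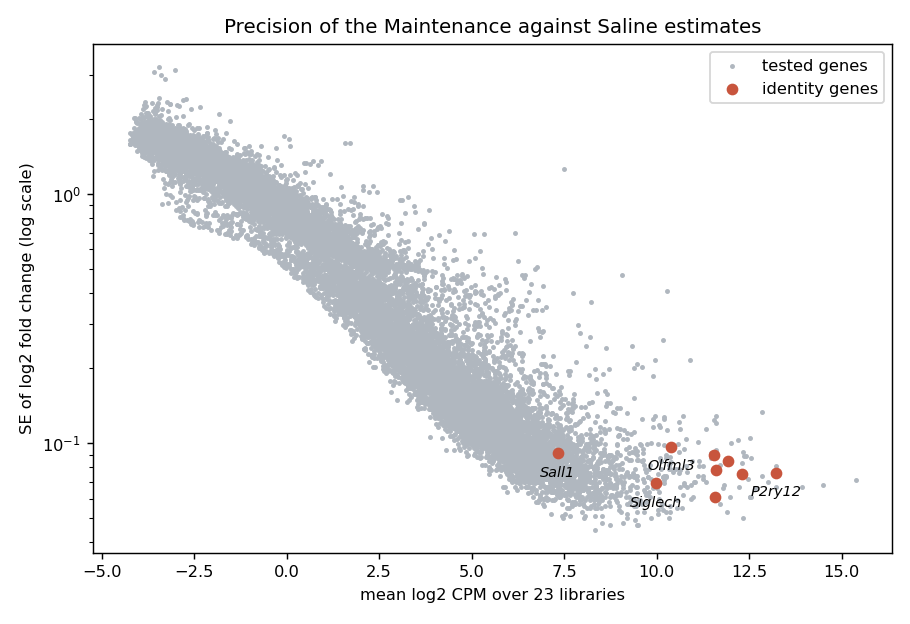
Standard error of the log2 fold change in Maintenance against Saline (vertical log axis) against mean log2 CPM over 23 libraries for the 16121 tested genes in grey and the 9 identity genes in red. The identity genes sit at the abundant end, with errors from 0.06 to 0.10, among other genes of like abundance.

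Within groups the 9 genes varied together from library to library. All 36 pairs correlated positively across the 23 libraries (Pearson r 0.37 to 0.84, median 0.64), and 0.39 to 0.94 after group means were removed. P2ry12 and P2ry13 had r = 0.81, or 0.94 without group means, P2ry12 and Gpr34 had 0.84, and Cx3cr1 and Olfml3 had 0.84. These points share library, depth and the proportion of microglia, so the coefficients describe the preparations as well as the genes. The mean of the 9 genes, in log2 CPM centred on each gene, was 0.03 ± 0.12 in Abstinence, -0.07 ± 0.17 in Maintenance and 0.04 ± 0.13 in Saline. Maintenance 8 had the lowest mean of all (-0.37) and was the lowest of 23 libraries for P2ry12, P2ry13, Tmem119, Cx3cr1, Gpr34 and Fcrls; Maintenance 6 (-0.21) was the lowest for Siglech, Sall1 and Olfml3. Maintenance 8 is the library with the most choroid plexus transcripts, whose part in its low values was not tested.

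**Figure D4:**
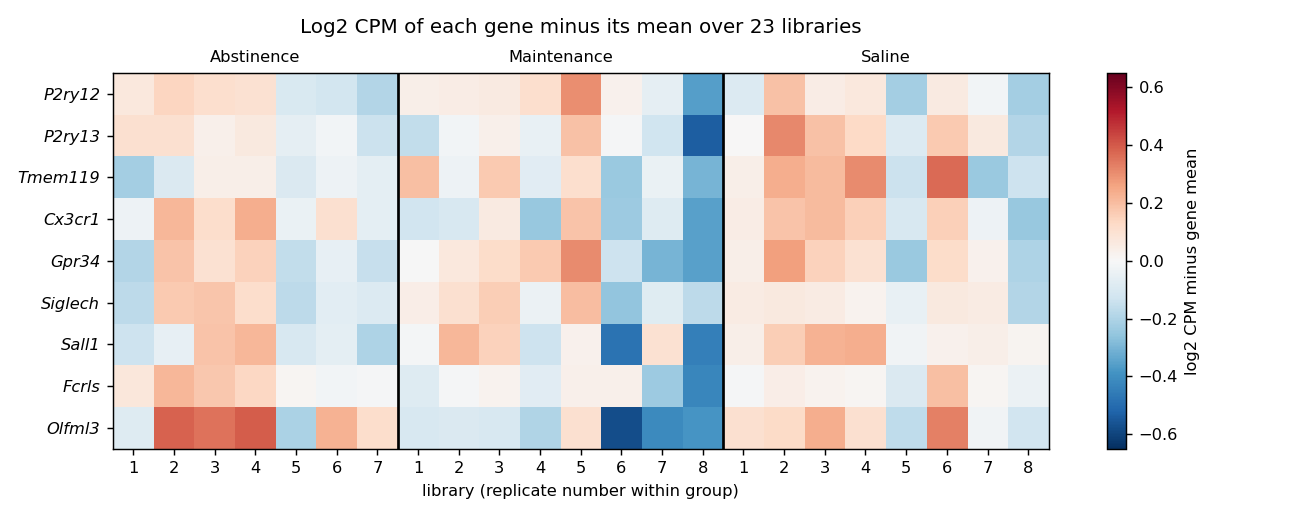
Log2 CPM of each identity gene minus its mean over 23 libraries (colour), with libraries in columns by group and replicate number. Columns tend to be one colour, Maintenance 8 is blue in all 9 genes, and Olfml3 is blue in Maintenance 6, 7 and 8 and red in Abstinence 2, 3 and 4.

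Among 4258 other tested genes that averaged 5 or more in log2 CPM, those whose levels ran most like the mean of the 9 across 23 libraries were Trem2 (r = 0.90), Adgre1 (0.89), Cd53 (0.89), Ctsz (0.89) and Vsir (0.88). The gene most like each of 8 members was Casp8 for P2ry12 (0.84), F11r for Tmem119 (0.88), Mpeg1 for Cx3cr1 (0.92), Trem2 for Gpr34 (0.87), Hpgd for Siglech (0.87), Sla for Sall1 (0.78), Adgre1 for Fcrls (0.87) and Ppfia4 for Olfml3 (0.93). Ppfia4, like Olfml3, was higher in Abstinence than in Maintenance by 0.38 on the log2 scale without passing (adjusted p = 0.0529).

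Of 40 further microglial signature genes, edgeR called 0 in each comparison, and 12, 6 and 16 had an unadjusted p under 0.05 in Abstinence against Maintenance, Abstinence against Saline and Maintenance against Saline. The shares at that p were 11%, 4.39% and 11.8% of all tested genes and 27.3%, 9.79% and 25.7% of the 940 abundant ones, and the counts at an unadjusted p in the lists that follow stand beside the same shares. Over all genes DESeq2 called 471, 36 and 351 and voom 340, 208 and 413 in the same 3 comparisons. Their counts in this list and the following ones stand beside those totals. Of the 40, DESeq2 called 5 in the first comparison (Cd33, Entpd1, Itgam, Ltc4s and Selplg, named after their values were seen) and 0 in the others, and voom 4, 3 and 2. By smallest p the gene was Cd33, a sialic acid binding receptor, at 329.5 ± 28.4 CPM in Abstinence and 267.5 ± 30.8 CPM in Maintenance (log2 0.30 ± 0.08, adjusted p = 0.0517). In Maintenance against Saline it was C1qc, a complement subunit, at 6905 ± 636 CPM and 8196 ± 638 CPM (log2 -0.25 ± 0.07, adjusted p = 0.119). The gene in Abstinence against Saline was P2ry6, the UDP receptor of phagocytosis, at 217.5 ± 14.9 CPM and 256.0 ± 28.2 CPM (adjusted p = 0.683).

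A list of purine handling genes around P2ry12 and P2ry13 shares genes with the 40 signature genes, Entpd1 and P2ry6 among them. Of 16 receptors and enzymes edgeR called 0 in each comparison, with 2, 3 and 5 at an unadjusted p under 0.05, and DESeq2 called 2, 0 and 1 and voom 2, 2 and 1 in Abstinence against Maintenance, Abstinence against Saline and Maintenance against Saline. Entpd1, the ectonucleotidase CD39 that breaks down ATP and ADP, had 1189 ± 101 CPM in Abstinence and 1477 ± 174.5 CPM in Maintenance (log2 -0.31 ± 0.08, adjusted p = 0.0581). Adora1, an adenosine receptor, had 8.52 ± 4.19 CPM in Maintenance and 3.25 ± 1.71 CPM in Saline (log2 1.39 ± 0.35, adjusted p = 0.0575).

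Of 25 regulators of microglial identity, among them the transcription factors Spi1 and Irf8 and the TGF-beta pathway, edgeR called 0 in each comparison, 8, 3 and 6 had an unadjusted p under 0.05, DESeq2 called 2, 0 and 0, and voom 0, 2 and 0. Smad3, a TGF-beta signal transducer, had 53.2 ± 9.17 CPM in Abstinence, 40.0 ± 6.24 CPM in Maintenance and 49.1 ± 3.41 CPM in Saline (log2 0.41 ± 0.11, adjusted p = 0.0605, in Abstinence against Maintenance). Nrros, which presents latent TGF-beta on microglia, had 339.4 ± 19.1 CPM in Abstinence and 429.0 ± 69.2 CPM in Saline (adjusted p = 0.45). Of 15 ligands, adaptors and signalling partners of the receptors, edgeR called 0 in each, 3, 1 and 6 had an unadjusted p under 0.05, DESeq2 called 0, 0 and 2, and voom 0, 0 and 1. Ptpn6, a phosphatase recruited by inhibitory receptors, had 288.4 ± 38.0 CPM in Maintenance and 349.6 ± 31.9 CPM in Saline (adjusted p = 0.0823), and Vav1, a guanine exchange factor, had the smallest p in Abstinence against Saline (adjusted p = 0.999).

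Activation genes served as the counterpart of the identity genes. Of 20 genes of the disease-associated microglial state, Apoe alone passed by edgeR: it fell in Abstinence to 1343.5 ± 169 CPM, against 2075 ± 496 CPM in Maintenance (log2 -0.63 ± 0.12, adjusted p = 0.00759), and rose in Maintenance relative to 1487.5 ± 212 CPM in Saline (log2 0.48 ± 0.11, adjusted p = 0.0456). In a check added after seeing the data, leaving out Maintenance 6, 7 and 8 gave Apoe -0.44 (adjusted p = 0.021) in Abstinence against Maintenance and 0.28 (adjusted p = 0.203) in Maintenance against Saline, so only the first still passed. At an unadjusted p under 0.05 there were 6 of the 20 in Abstinence against Maintenance and 5 in Maintenance against Saline. DESeq2 called 4 in Abstinence against Maintenance (Apoe, Ccl3, Cd9 and Ctsd) and 1 in Maintenance against Saline (Apoe), and voom called Apoe and Ctsd in both. In Abstinence against Saline edgeR called 0 of the 20, with 1 at an unadjusted p under 0.05 (Csf1, adjusted p = 0.94) and 0 by DESeq2 or voom. Of 22 early response genes that cell isolation can induce, edgeR called 0 in each comparison, with 6, 5 and 5 at an unadjusted p under 0.05, and DESeq2 called 2, 2 and 1 and voom 1, 4 and 2. The smallest p belonged to Fosb in Abstinence against Maintenance (249.5 ± 37.0 and 179.9 ± 37.7 CPM, adjusted p = 0.0509) and to Hspa1a in Abstinence against Saline (1092 ± 513 and 427.1 ± 107.6 CPM, adjusted p = 0.0824) and in Maintenance against Saline (728 ± 164 and 427.1 ± 107.6 CPM, adjusted p = 0.154).

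Of 30 tests on marker means of other cell types 4 passed. They were neutrophil markers in both comparisons with Saline, and monocyte and erythrocyte markers in Maintenance against Saline. The mean log2 CPM of 13 neutrophil markers was -0.70 ± 0.72 in Abstinence, -0.30 ± 0.95 in Maintenance and 2.18 ± 1.77 in Saline (two-sided exact permutation p = 0.00155 for Abstinence and 0.00451 for Maintenance, each against Saline; adjusted p = 0.0455 over 30 tests). Their summed level was 257.8 to 440.5 CPM in Abstinence, 195.5 to 409.2 CPM in Maintenance and 309.3 to 1222.7 CPM in Saline, and the granule gene Mpo was at 0 in 16 libraries. By edgeR, Csf3r was the 1 neutrophil marker of 10 tested that passed, at 281.5 ± 32.2 CPM in Abstinence, 210.4 ± 18.6 CPM in Maintenance and 275.5 ± 28.3 CPM in Saline (adjusted p = 0.00564 for Abstinence against Maintenance and 0.00997 for Maintenance against Saline). Csf3r did not follow its list. It was the 1 marker higher in Abstinence than in Maintenance, with 8 lower, and its Abstinence mean was not below that of Saline. At these levels it made up much of the summed level. DESeq2 also called Camp and Mpo in Abstinence against Saline. Without Maintenance 6, 7 and 8, Csf3r was 0.38 on the log2 scale in Abstinence against Maintenance and -0.36 in Maintenance against Saline (adjusted p = 0.0221 and 0.046). The mean of 12 monocyte markers fell to 1.69 ± 0.71 in Maintenance, against 2.92 ± 0.88 in Saline, and that of 8 erythrocyte markers fell to 1.27 ± 1.05 in Maintenance, against 2.83 ± 0.78 in Saline (exact permutation p = 0.00606 and adjusted p = 0.0455 for each). Left without Maintenance 6, 7 and 8, the Maintenance means were -0.62 ± 1.07 for neutrophil, 1.78 ± 0.75 for monocyte and 1.77 ± 0.98 for erythrocyte markers (unadjusted exact permutation p = 0.0124, 0.0295 and 0.0575 against Saline). Oligodendrocyte markers (16) averaged 6.95 ± 0.45 in Abstinence, 6.91 ± 0.59 in Maintenance and 6.04 ± 0.87 in Saline and as a mean did not pass (adjusted p = 0.0944 and 0.112 against Saline). Of the 16, voom called 7 in Abstinence against Saline and 11 in Maintenance against Saline, and DESeq2 called 0 and 1 (Ermn). The other tests, 26 of 30 with the oligodendrocyte ones, had adjusted p from 0.0777 to 0.996. Enpp2 of the oligodendrocyte list and Sostdc1 of the choroid list passed by edgeR as higher in Maintenance than in Saline (adjusted p = 0.048 and 0.0473), both with their high value in Maintenance 8, and neither passed without Maintenance 6, 7 and 8 (adjusted p = 0.211 and 0.331). In the lists without an edgeR call the genes of smallest p included Gfap and Sox9 (astrocyte), Ppp1r1b (neuron), Ly6c1, Pdgfrb and Flt1 (vessel), F13a1, Ccr2 and Ly6c2 (monocyte), Cd163 and Cd209f (border macrophage), Cd4, Cd79a and Klrb1c (lymphocyte) and Hba-a2, Alas2 and Hba-a1 (erythrocyte), with adjusted p from 0.0744 to 0.999. In these lists DESeq2 called Gfap in Abstinence against Maintenance and Ly6c2 and Cd163 in Maintenance against Saline, and voom called 0. With the oligodendrocyte and neutrophil means as covariates, the identity genes again gave 0 calls in each comparison, Olfml3 was 0.39 (adjusted p = 0.0571) in Abstinence against Maintenance and Tmem119 was -0.02 in Abstinence against Saline.

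Genes that overlap the 9 held few counts beside them. Med12l, on the opposite strand, spans P2ry12 and P2ry13 and held 0.376% and 1.17% as many counts, and it shares 9 exonic bases with P2ry12. The GENCODE model of Cx3cr1 reaches across 9 further genes, of which Csrnp1 had the most counts (3.4% of those of Cx3cr1), while the RefSeq gene overlaps none of them. Of 13 overlapping or neighbouring genes 11 were tested, and edgeR called 0 in each comparison, with 2, 1 and 1 at an unadjusted p under 0.05. DESeq2 and voom each called 2 in Abstinence against Maintenance, Csrnp1 and Iscu, and 0 in the others. The smallest p belonged to Csrnp1 in Abstinence against Maintenance (adjusted p = 0.133), Iscu in Abstinence against Saline (0.999) and Slc25a38 in Maintenance against Saline (0.391). The strand and the counting rule are not stated, so reads of opposite strands cannot be told apart.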

How the data were processed

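Per the labels' protocols, a low-input RNA kit was used for the 23 libraries of striatal microglia. The authors deposited whole-number read counts per gene for all 23 libraries, which were used for every result. The tools named in the submitters' processing notes are STAR 2.7.10a and StringTie 2.1.5 with the trimmers cutadapt 1.18 and Trim Galore 0.6.7, DESeq2 1.38.3 and the build mm10 (GRCm38); order, settings, strand and counting rule are not given in the sources used here. A second deposited table held the same counts for 17 libraries (0 of 611592 values differed), leaving out Maintenance 6, 7 and 8 and Saline 5, 6 and 8, and defined 1 alternative set.

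Genes were kept with filterByExpr by group (minimum count 10, minimum total 15; 16121 genes). All 23 libraries entered 1 edgeR 4.0.16 quasi-likelihood fit (TMM factors, robust), with group as the only factor and Benjamini-Hochberg adjustment over all tested genes at 0.05. The SE is the log2 fold change over the square root of F, and 95% intervals use its t quantile. CPM are TMM-scaled, and log2 CPM used a prior count of 2. Alternatives were DESeq2 1.42.0, limma 3.58.1 voom with quality weights, other scalings and filters, a replicate block, leaving out libraries and marker covariates; leaving out Maintenance 6, 7 and 8 for list genes and marker means was added after seeing the data. The code was tested on simulated data. Marker means were compared by exact permutation over libraries.

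The 9 genes and all lists were chosen with earlier results of these data known. All 9 are named whatever their p. Of every other list the genes that passed are named, or else the 1 of smallest p per comparison, with overlapping genes and the nearest genes by correlation. A few genes that this rule names are not reported here. The labels do not say whether replicate numbers pair libraries across groups. Deviations of same-numbered libraries correlated between -0.23 and 0.16, which cannot settle whether they shared a day or cohort. Transcript lengths and overlaps come from GENCODE M21.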

Additional observations from a re-analysis of the deposited data

Results flagged for a closer look

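Of the 27 sets of values formed by 9 genes in 3 groups, 1 held a library far from the others. Fcrls in Saline 6 measured 3485 CPM, while the other Saline libraries measured 2859 to 3140 CPM; the gap to the nearest was 0.551 of the group's range. About 1 set in 20 is singled out in this way by chance.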

How the results depend on the processing

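Across 36 alternative settings the log2 fold changes of the 9 genes stayed between -0.16 and 0.45 in Abstinence against Maintenance, -0.20 and 0.17 in Abstinence against Saline, and -0.33 and 0.13 in Maintenance against Saline. The widest intervals allowed a loss of 20.4% and a gain of 56.9%, a loss of 25.3% and a gain of 38.5%, and a loss of 30.7% and a gain of 22.3% in the same 3 comparisons. The number of the 9 that passed stayed at 0 in the 2 comparisons with Saline under all of them. In Abstinence against Maintenance it was 1 (Olfml3) with RLE factors, library totals without factors, the 1 CPM filter, DESeq2 and voom, and 0 to 1 when single libraries were left out. The count within 1.5-fold was 8 to 9 and that within 2-fold was 9 throughout.

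The number of all genes that passed in Abstinence against Maintenance (153) was 242 with the 1 CPM filter, 471 by DESeq2, 340 by voom, 64 with only the compared groups in the fit and 238 in the 17 libraries. In Abstinence against Saline (3) the same settings gave 6, 36, 208, 5 and 56, with 15 without Maintenance 6, 7 and 8 and 0 with marker covariates. In Maintenance against Saline (114) DESeq2 gave 351, voom 413, only the compared groups 57, the 17 libraries 176 and marker covariates 31. Leaving out single libraries gave 89 to 265 (lowest without Abstinence 3, 4 or 7, highest without Maintenance 8), 1 to 15 (highest without Saline 8) and 42 to 197 (lowest without Saline 1, 2, 3 or 4, highest without Saline 8). With the replicate block, 126, 4 and 69 genes passed and 0 of the 9 in each comparison. Same-numbered libraries correlated over 0.1 in 1 of 7, 2 of 7 and 1 of 8 pairs, and whether the numbers pair libraries is not known. The cause was not tested for any of these shifts.

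Sign changed only for values close to 0 that never passed, 0.10 in size at most. In Abstinence against Maintenance, Siglech was -0.01 with RLE factors, by DESeq2 and with only the compared groups, 0 without a filter and with marker covariates, -0.02 with the 1 CPM filter and the replicate block, -0.03 by voom, and -0.10 in the 17 libraries and without Maintenance 6, 7 and 8; Sall1 was -0.01 by voom and -0.08 in both reduced sets. In Abstinence against Saline, P2ry12 was -0.02 by voom and with the replicate block and -0.04 in the 17 libraries, Cx3cr1 -0.01, -0.01 and -0.04 in the same, and Siglech 0 with library totals and voom and 0.02 with marker covariates. In Maintenance against Saline, Siglech was 0.01 with RLE factors and DESeq2, 0 with library totals, 0.02 with the 1 CPM filter and marker covariates, 0.03 by voom, 0.05 in the 17 libraries and 0.08 without Maintenance 6, 7 and 8; Gpr34 was 0.02 and 0.09 in those reduced sets, and Tmem119 0.01 with marker covariates. Leaving out single libraries gave, in Abstinence against Maintenance, -0.08 to 0.01 for P2ry12, -0.07 to 0.03 for Gpr34, -0.04 to 0.03 for Siglech and -0.02 to 0.08 for Sall1. It gave -0.01 to 0.06 for P2ry12, -0.02 to 0.05 for Cx3cr1 and -0.04 to 0.02 for Siglech in Abstinence against Saline, and -0.08 to 0 for Gpr34 and -0.03 to 0.02 for Siglech in Maintenance against Saline.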
